A study of Mus musculus with 28 samples.

Results

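Endothelial genes were followed through lung epithelial preparations from which CD31-positive cells, and with them most endothelium, should have been removed. The set holds 32 genes of 23478 gene rows in the 2 deposited RNA-seq count tables, chosen by name as known endothelial genes, and all 32 were found in both tables. Pecam1, which encodes CD31, is among them. The RNA came from mouse lung cells selected for EPCAM (CD326) after depletion of CD31, CD271, CD90.2, Ter119, CD16/32 and CD45, and the cells are labelled as alveolar type 2 (AT2) cells. The floxed genes were to recombine from postnatal day 3, and the lungs were taken at postnatal day 14. The Yap active group (6 RNA libraries) was Stk3flox/flox/Stk4flox/flox SftpcCreert2, in which the 2 kinases that restrain YAP are deleted, and its control (4 libraries) was Stk3flox/flox/Stk4flox/flox without Cre. The Yap deleted group (5 libraries) was Yapflox/flox SftpcCreert2, and its control (4 libraries) was Yapflox/flox without Cre. The Cre is driven by Sftpc, an AT2 gene, so none of the 4 groups was designed to change endothelial cells. The inducing agent is not named in the labels, which leave out how libraries relate to animals, so p-values measure the spread between libraries, which may be technical.

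Endothelial cells line the blood vessels, and in the lung the capillary endothelium lies against the alveolar epithelium across a thin shared basement membrane, so the cell types are separated only by digestion and antibody steps. Endothelial identity rests on ETS and SOX factors such as ERG, SOX17 and SOX18, on adherens and tight junctions built from VE-cadherin and claudin-5, and on receptors for VEGF, angiopoietins and BMP9. Mouse lung capillaries hold a general type, marked by Gpihbp1, Aplnr and Plvap, and a large thin type named the aerocyte, marked by Car4 and Ednrb. Several of the genes are also known outside endothelium, among them Eng, S1pr1 and Ednrb in stromal cells.

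Promoter sequence from RefSeq (GRCm38.p6, the patched form of mm10) was at hand for 15 of the 32 genes, as 20 windows of 250 bases before the start site. Shown are the window of Clec14a, which lies inside a region that the authors list as opened in Yap active cells, that of Tie1, a gene that was low wherever Pecam1 was low, and those of Kdr and Eng, which kept part of their level there. Each is written 5′ to 3′ along the gene's strand, and capitals mark AGGAAG or its reverse complement CTTCCT, a form of the core that ETS factors such as ERG bind.
Clec14a, chr12:58269259-58269508, minus strand: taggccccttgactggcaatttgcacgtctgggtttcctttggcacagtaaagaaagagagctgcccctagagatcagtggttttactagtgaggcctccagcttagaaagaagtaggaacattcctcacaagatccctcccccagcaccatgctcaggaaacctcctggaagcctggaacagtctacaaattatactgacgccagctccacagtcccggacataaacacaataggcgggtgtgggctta
Tie1, chr4:118489850-118490099, minus strand: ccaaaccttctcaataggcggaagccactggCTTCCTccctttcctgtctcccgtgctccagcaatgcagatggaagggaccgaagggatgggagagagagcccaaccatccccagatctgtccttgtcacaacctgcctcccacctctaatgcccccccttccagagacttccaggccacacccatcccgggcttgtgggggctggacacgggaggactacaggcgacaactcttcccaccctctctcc
Kdr, chr5:75978456-75978705, minus strand: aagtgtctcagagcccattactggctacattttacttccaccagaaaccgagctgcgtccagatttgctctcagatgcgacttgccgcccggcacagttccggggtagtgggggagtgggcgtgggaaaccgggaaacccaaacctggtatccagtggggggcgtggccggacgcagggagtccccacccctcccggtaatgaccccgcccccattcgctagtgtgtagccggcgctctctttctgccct
Eng, chr2:32646345-32646594, plus strand: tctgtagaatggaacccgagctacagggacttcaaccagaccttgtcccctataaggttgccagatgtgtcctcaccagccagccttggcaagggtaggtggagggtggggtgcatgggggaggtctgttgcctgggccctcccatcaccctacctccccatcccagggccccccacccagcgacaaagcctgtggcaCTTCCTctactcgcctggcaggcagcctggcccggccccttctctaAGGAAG
The motif was found on either strand in 9 of the 20 windows (45%, belonging to 8 genes), while 9686 of 32851 windows of all genes held it (29.5%). Eng had 2 matches and Tie1 had 1. Clec14a and Kdr had 0, which says only that these 6 letters are not in those windows.

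Depth was 35.0 to 43.5 M counts per library in the table of the Yap active line and 31.9 to 42.9 M in that of the Yap deleted line. Levels are given as CPM, the counts of a gene divided by the library's total in M, with that total scaled by TMM over all 19 libraries. Of the floxed genes, Stk3 stood at 51.1 CPM in the library labelled Yap active 1 and at 31.7 to 35.6 CPM in the other 5 Yap active libraries, against 55.9, 51.7, 56.6 and 34.0 CPM in controls 1 to 4. Stk4 stood at 128 CPM and at 79.1 to 93.5 CPM in the same Yap active libraries, against 108 to 120 CPM in the controls. Yap1 stood at 77.1, 138, 101, 82.6 and 93.8 CPM in Yap deleted libraries 1 to 5, against 205, 112, 169 and 183 CPM in their controls. Esr1, whose ligand-binding part is carried by the CreERT2 fusion, was at 213 to 523 CPM in 10 of the 11 libraries labelled as carrying Cre and at 2.03 CPM in the library labelled Yap active 1. It was at 0.929 to 3.93 CPM in 6 of the 8 controls, at 165 CPM in the library labelled Yap active control 2 and at 82.4 CPM in the library labelled Yap deleted control 2. These 3 libraries go against their labels, by which they are named throughout, and results that rest on them are given with and without them. The library labelled Yap active control 4 had Stk3 within the range of Yap active 2 to 6, with Stk4 at 120 CPM and Esr1 at 0.963 CPM as in controls. Epcam was present in all 19 libraries, at 89.5 to 259 CPM, and Sftpc at 2014 CPM or more.

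Carry-over of endothelial RNA differed strongly between libraries and was greatest in 2 controls of the Yap deleted line. Pecam1 stood at 15.1, 1.73, 0.798, 0.810, 0.804 and 0.962 CPM in Yap active libraries 1 to 6, against 20.5, 4.80, 43.1 and 0.935 CPM in their controls 1 to 4. In Yap deleted libraries 1 to 5 it stood at 2.81, 8.37, 2.10, 7.71 and 10.8 CPM, against 308, 232, 5.56 and 12.6 CPM in their controls 1 to 4. Yap deleted control 1 and the library labelled Yap deleted control 2 were thus far above the other 17 libraries, where the highest Pecam1 level was 43.1 CPM. The antigens removed with CD31 were not all low there either, since Ptprc (CD45) stood at 55.2 and 179 CPM in these controls, against 0.434 to 19.4 CPM in the other 17 libraries.

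The 32 genes together gave 566, 305, 400, 239, 311 and 268 CPM in Yap active libraries 1 to 6, against 660, 329, 986 and 303 CPM in their controls. They gave 328, 472, 320, 380 and 453 CPM in Yap deleted libraries 1 to 5, against 5364, 4103, 408 and 451 CPM in their controls. The highest library had 22.4 times the sum of the lowest, Yap active 4. As a share of all counts the genes made up 0.599% in Yap deleted control 1 and 0.0219% in Yap active 4. A large part of the lower sums was 1 gene, Esam, which supplied 75.2% of the summed counts in Yap active 4 and 2.44% in Yap deleted control 1, shares that also depend on transcript length.

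Without Esam the other 31 genes gave 467, 137, 229, 59.3, 140 and 90.2 CPM in the Yap active libraries, against 573, 219, 898 and 140 CPM in their controls. They gave 175, 356, 213, 260 and 359 CPM in Yap deleted libraries 1 to 5, against 5233, 3966, 275 and 335 CPM in their controls. Among the libraries with Pecam1 above 3 CPM this sum stood in nearly the same order as Pecam1, and below 3 CPM it still ranged between 59.3 and 229 CPM, with Pecam1 at 0.798 to 2.81 CPM. In bulk RNA fewer endothelial cells and less endothelial RNA per cell cannot be told apart.

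**Figure D1:**
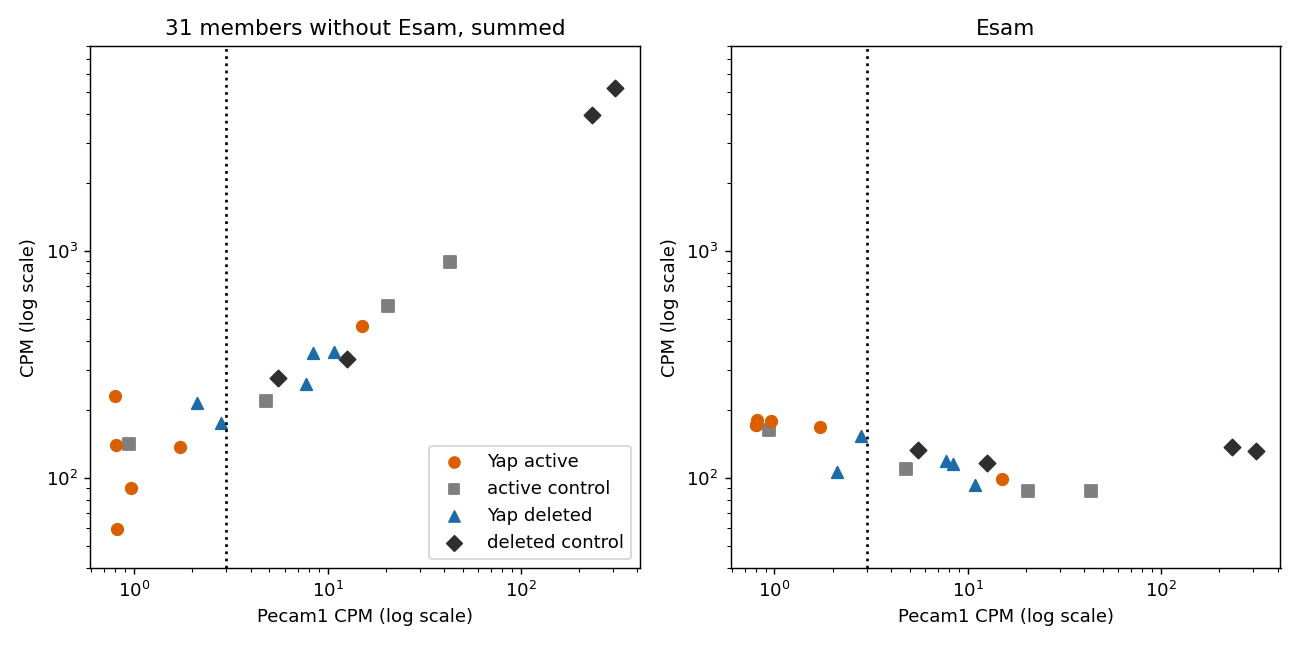
Summed CPM of 31 genes without Esam (left) and CPM of Esam (right) against Pecam1 CPM, all axes logarithmic, 1 point per library, colour and shape giving the group. The dotted line is Pecam1 at 3 CPM. The 31 genes climb to 5233 CPM with Pecam1, while Esam stays between 87.5 and 180 CPM in all 19 libraries.

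Genes of other cell types also differed between libraries, and their part in the endothelial values was not tested. Leukocyte sums were highest in Yap deleted controls 1 and 2, while fibroblast sums were highest in Yap deleted libraries 5 and 2. The 18 leukocyte genes, of which at most 3 were at 0 in a library, summed to 53.3 to 157 CPM in Yap active libraries, against 64.1 to 113 CPM in their controls, and to 71.0 to 251 CPM in Yap deleted libraries, against 472, 1971, 171 and 359 CPM in their controls 1 to 4. The 15 fibroblast genes, each detected in every library, summed to 1930 to 10744 CPM in Yap active libraries, against 3519 to 14572 CPM in controls, and to 3482 to 18912 CPM in Yap deleted libraries, against 5770 to 15169 CPM in controls. In the 8 libraries with Pecam1 under 3 CPM the fibroblast sum still ranged between 1930 and 13242 CPM. The 10 platelet genes summed to 8.22 to 22.1 CPM over all libraries.

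To compare genes of different length, each level was expressed as a percent of the gene's own highest library. That library was Yap deleted control 1 for 22 genes and the library labelled Yap deleted control 2 for 8 genes. Esam was highest in Yap active 4 and Ednrb in Yap active control 3. Among all 14300 genes with a mean of at least 1 CPM, 18.1% had their highest library in Yap deleted control 1 or 2. The median gene of the 32 was at 13.9% of its highest level in Yap active control 3, at 7.15% in Yap active control 1, and at 0.403% in Yap active 4, the lowest library.

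**Figure D2:**
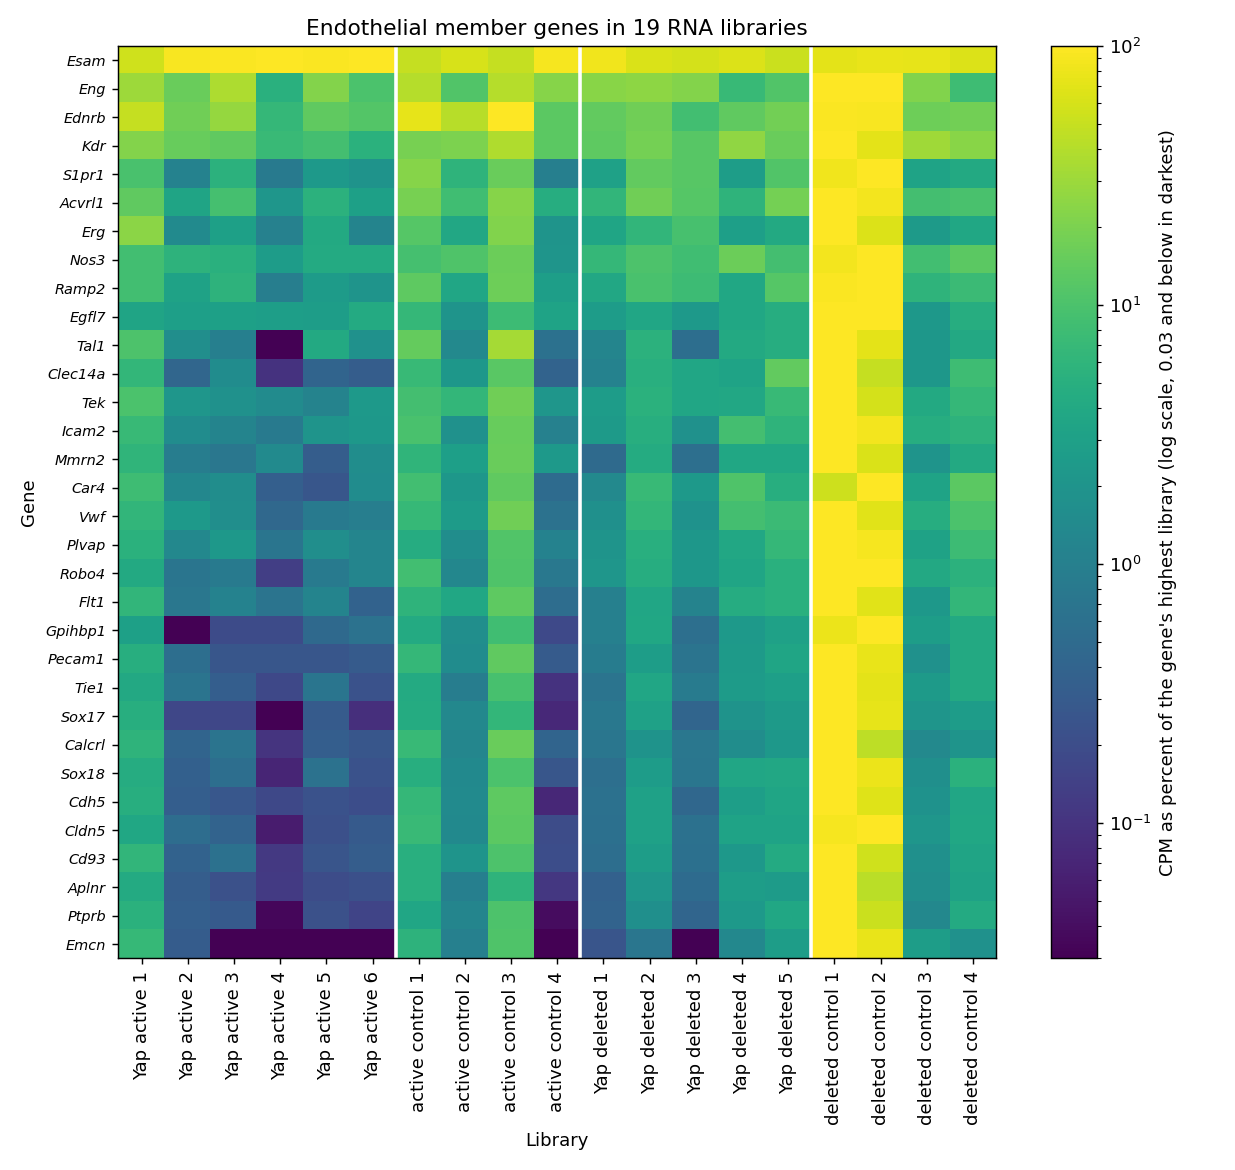
CPM of the 32 genes (rows, sorted by their highest percent in low-Pecam1 libraries) in 19 RNA libraries (columns, grouped), as percent of the gene's own highest library on a log colour scale. Most rows are bright only in Yap deleted controls 1 and 2, while Esam at the top is bright throughout, at 48.5% or more.

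The junction and adhesion genes held both extremes. Cdh5, which encodes VE-cadherin of the endothelial adherens junction, stood at 22.9, 1.61, 1.30, 0.839, 1.10 and 0.962 CPM in the Yap active libraries, against 31.8, 6.88, 64.2 and 0.358 CPM in their controls. It stood at 2.98, 14.8, 2.16, 13.5 and 17.1 CPM in Yap deleted libraries 1 to 5, against 476, 325, 9.07 and 17.5 CPM in their controls. Cdh5 was thus high and low in the same libraries as Pecam1, and its groups overlapped in both lines. Cldn5, the claudin of endothelial tight junctions, stood at 377 and 417 CPM in Yap deleted controls 1 and 2 and at 0.231 to 2.56 CPM in the 8 libraries with Pecam1 under 3 CPM. Emcn, a sialomucin of capillary and venous endothelium, was at 18.6 and 14.4 CPM in these controls and had 0 counts in 6 of the 8 libraries low in Pecam1, where a count of 0 allows up to 0.0731 to 0.0962 CPM, for counting error only. Icam2, an adhesion molecule for leukocytes, was at 0.830% to 2.48% of its highest level in the same 8 libraries. Esam, an immunoglobulin-family junction protein of endothelium and platelets, was the other extreme and is described with the libraries low in Pecam1.

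The receptor kinases and their phosphatase separated as well. Ptprb, the phosphatase VE-PTP that acts on the angiopoietin receptor and on VE-cadherin, had the widest range among the genes with counts in every library, at 422 CPM in Yap deleted control 1 and 0.145 CPM in Yap active 4. Tie1, an orphan receptor kinase partnered with TEK, was at 0.0999% to 0.875% of its highest level in the 8 libraries low in Pecam1. Tek, the angiopoietin receptor TIE2, was at 1.13% to 3.60% there, and Flt1, which encodes VEGF receptor 1, at 0.381% to 1.16%. Kdr, which encodes VEGF receptor 2, was at 5.28% to 15.2%, above all 4 of these ranges.

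Eng and Acvrl1, the co-receptor and the receptor kinase (ALK1) for BMP9, were less low than most of the genes. Eng was at 5.15% to 37.2% and Acvrl1 at 2.12% to 11.9% of their highest levels in the 8 libraries low in Pecam1. Acvrl1 stood at 45.4, 11.3, 30.5, 7.0, 18.3 and 10.1 CPM in Yap active libraries 1 to 6, against 62.4, 27.3, 75.2 and 15.5 CPM in their controls. In the Yap deleted libraries it stood at 20.5, 57.7, 39.4, 19.4 and 61.2 CPM, against 330, 287, 28.8 and 32.1 CPM in their controls. Yap deleted libraries 2 and 5, the highest for Acvrl1 outside the controls 1 and 2 of that line and Yap active controls 1 and 3, had Pecam1 at only 8.37 and 10.8 CPM. They also had the 2 highest fibroblast sums of all libraries, 16224 and 18912 CPM. That sum was 9490 CPM in Yap active control 3, with 75.2 CPM of Acvrl1, and 13242 CPM in Yap deleted 3, with 39.4 CPM. The part of fibroblasts in the level of Acvrl1 was not tested.

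The G protein-coupled receptors were mixed as well. Calcrl, the adrenomedullin receptor, was at 0.101% to 0.757% of its highest level in the 8 libraries low in Pecam1, while its partner Ramp2 was at 0.975% to 7.87%. Aplnr, the apelin receptor of general capillary cells, was at 0.113% to 0.519%. S1pr1, the sphingosine-1-phosphate receptor that tightens the endothelial barrier, was at 0.859% to 12.0%, with 22.6 CPM in Yap deleted 3 and 1.62 CPM in Yap active 4. Ednrb, the endothelin receptor of aerocytes, was at 6.59% to 27.6%.

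The genes of the capillary surface and lumen were low where Pecam1 was low, Nos3 the least so. Vwf, the platelet-binding glycoprotein of larger vessels, stood at 15.4, 5.71, 4.11, 1.13, 2.07 and 2.37 CPM in the Yap active libraries, against 16.7, 6.40, 42.3 and 1.57 CPM in their controls. Car4, the carbonic anhydrase of aerocytes, stood at 40.5 CPM in Yap deleted control 1 and 74.8 CPM in the library labelled Yap deleted control 2, and Gpihbp1, which carries lipoprotein lipase to the capillary surface, at 24.0 and 30.6 CPM. Plvap, the diaphragm protein of caveolae and fenestrae, was at 0.703% to 2.28% of its highest level in the 8 libraries low in Pecam1, against 0.260% to 2.34% for Car4 and 0 to 1.02% for Gpihbp1. Nos3, the endothelial nitric oxide synthase, was at 2.03% to 8.31%, but its own level never passed 21.7 CPM. The Nos3 locus overlaps Atg9b on the annotation, and whether counting used the strand is not given. Atg9b had at most 0.755 CPM in any library, and Nos3 had 0.440 to 1.80 CPM in the 8 libraries low in Pecam1. The part of shared reads in the level of Nos3 was not tested. The Plvap locus overlaps Gtpbp3, which was at 15.2 to 28.8 CPM in all 19 libraries, above the 1.36 to 4.41 CPM of Plvap in the 8 libraries low in Pecam1, and the part of shared reads in these low values was not tested.

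The genes of surface and matrix proteins were also low, against their highest levels, where Pecam1 was low. Cd93 and Clec14a, related C-type lectin-like receptors, were at 0.116% to 0.609% and at 0.0992% to 3.62% of their highest levels in the 8 libraries low in Pecam1, and Mmrn2, their shared matrix ligand, at 0.333% to 2.44%. Robo4, the endothelial roundabout receptor, was at 0.136% to 2.20%. Egfl7, the secreted endothelial protein whose intron holds a microRNA, had the narrowest range of these 5, at 2.31% to 4.32%, with 4.03 to 7.53 CPM in these 8 libraries. Its lowest level, 3.51 CPM, was outside them, in the library labelled Yap active control 2, with Pecam1 at 4.80 CPM.

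Of the transcription factors, Sox17 and Sox18 were among the lowest, at 0 to 0.779% and 0.0696% to 0.732%. Sox17 stood at 71.0 and 52.1 CPM in Yap deleted controls 1 and 2 and had 0 counts in Yap active 4. Erg, the ETS factor of endothelial identity, was at 1.06% to 9.37%, and Tal1, a bHLH factor shared by blood and endothelium, at 0 to 4.08%. Erg stood at 10.1, 0.595, 1.24, 0.434, 1.70 and 0.481 CPM in the Yap active libraries, against 4.75, 1.57, 8.68 and 0.825 CPM in their controls, so the library labelled Yap active 1 was above every control of its line. In the Yap deleted libraries Erg stood at 1.44, 2.55, 3.83, 1.18 and 1.67 CPM, against 40.9, 26.3, 1.03 and 1.55 CPM in their controls.

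The 2 controls with the most endothelial RNA also differed from each other in its makeup. Yap deleted control 1 had 1.32 times the Pecam1 of the library labelled Yap deleted control 2. The ratio was 2.30 for Aplnr, 2.24 for Calcrl, 2.02 for Clec14a and 1.93 for Ptprb, but 0.542 for Car4, 0.785 for Gpihbp1 and 0.831 for S1pr1. These are ratios of 1 library to another, with no replicate behind them.

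Pecam1 was under 3 CPM in 8 libraries, namely Yap active 2 to 6, Yap active control 4 and Yap deleted 1 and 3. Just inside this limit was Yap deleted 1 (2.81 CPM) and just outside it was the library labelled Yap active control 2 (4.80 CPM). In each of the 8 libraries most of the 32 genes were low with Pecam1. In all 8, 26 were under 10% of their highest level and 23 were under 5%. Both counts include Pecam1, whose low level followed from the choice of the libraries. Esam alone was at 10% or more in all 8, and in the other 7 with Yap active control 4 left out, an alternative added after the data had been seen. By contrast, 90.2% of the 14300 genes with a mean of at least 1 CPM were at 10% or more of their own highest level in all 8 libraries. With the limit at 5% there were 4 such genes among the 32, Esam, Kdr, Eng and Ednrb. S1pr1 and Acvrl1 passed 10% in 1 of the 8 libraries each.

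Measured against Pecam1 itself, 7 genes kept more than 3 times Pecam1's share of its own highest level in all 8 libraries, namely Esam, Eng, Kdr, Ednrb, Acvrl1, Ramp2 and Nos3. Pecam1's own share there was only 0.259% to 0.914%. At least 90.2% of the 14300 genes with a mean of at least 1 CPM also passed, being at 10% or more in all 8. The 32 genes were chosen as endothelial and the 8 libraries by a measured value, so these counts are a description without a test. Of 27 measured genes of 30 in a separate endothelial list, 4 were at 10% or more in all 8 libraries, Palmd, Procr, Afap1l1 and Sox13, which are named because their values were seen.

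**Figure D3:**
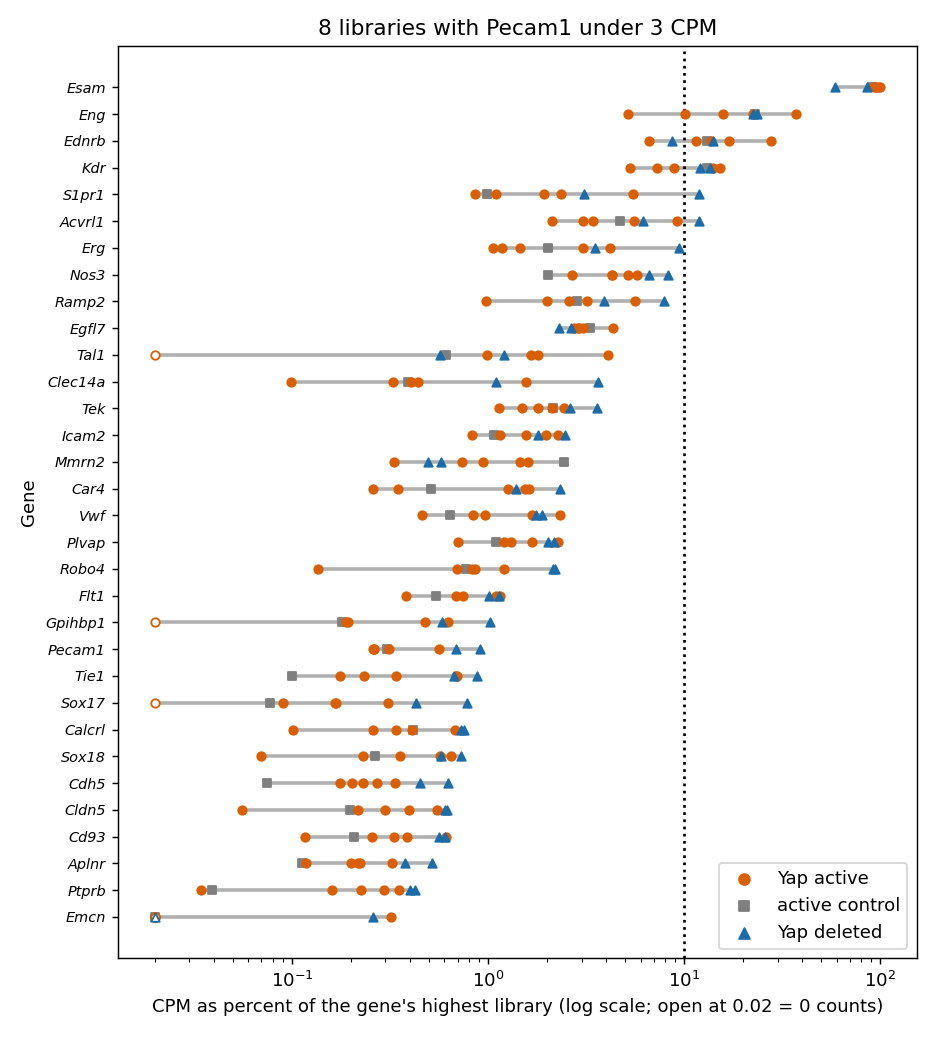
Percent of its own highest library (log axis) for each of the 32 genes in the 8 libraries with Pecam1 under 3 CPM, 1 point per library. Open points stand for 0 counts and the dotted line marks 10%. Esam lies at 59.1% or more and Eng, Ednrb and Kdr straddle the line, while 26 of the other genes, Pecam1 included, lie wholly to its left.

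Esam stood at 98.9, 168, 171, 180, 172 and 178 CPM in Yap active libraries 1 to 6, against 87.5, 110, 88.0 and 163 CPM in their controls. In Yap deleted libraries 1 to 5 it stood at 154, 115, 106, 119 and 93.5 CPM, against 131, 137, 133 and 116 CPM in their controls. The gene (chr9:37528089-37538319, GRCm38.p6) overlaps no other annotated gene. Its level thus varied by a factor of 2.06 over all 19 libraries, while that of Pecam1 varied by a factor of 385, and in 7 of the 8 libraries low in Pecam1 (154 to 180 CPM) it was above all of the other 11 (87.5 to 137 CPM), the exception being Yap deleted 3 (106 CPM). The 10 general epithelial genes, Epcam and Cdh1 among them, summed to 3101 to 4251 CPM in the 8 libraries and to 1270 to 3889 CPM in the other 11. In Yap active 2 to 6, where Esam reached 168 to 180 CPM, this sum was 3695 to 4251 CPM. It lay in the same range in Yap active control 4 (3783 CPM), where Esam was 163 CPM. The same held for Yap deleted 4 (3731 CPM), with Esam at 119 CPM, and Yap deleted control 3 (3889 CPM), with Esam at 133 CPM. The library labelled Yap deleted control 2 had the lowest epithelial sum, 1270 CPM, and 137 CPM of Esam. The part of epithelial content in the level of Esam was not tested.

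Kdr stood at 49.9, 34.0, 31.4, 16.3, 20.0 and 11.8 CPM in Yap active libraries 1 to 6, against 41.8, 45.5, 84.1 and 29.3 CPM in their controls. It stood at 30.4, 40.6, 27.0, 58.9 and 35.5 CPM in Yap deleted libraries 1 to 5, against 224, 162, 71.5 and 53.3 CPM in their controls. Kdr passed 10% of its highest level in 5 of the 8 libraries low in Pecam1. In Yap active control 4, where Cdh5 was at 0.358 CPM and Pecam1 at 0.935 CPM, Kdr still had 29.3 CPM. Each of the 8 libraries had at least 369 counts of Kdr.

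Eng stood at 81.5, 42.1, 98.7, 13.7, 59.7 and 27.0 CPM in Yap active libraries 1 to 6, against 106, 29.5, 108 and 60.9 CPM in their controls. It stood at 62.4, 67.0, 59.9, 19 and 29.0 CPM in Yap deleted libraries 1 to 5, against 259, 266, 57.6 and 21.6 CPM in their controls. Eng passed 10% in 7 of the 8 libraries low in Pecam1, all but Yap active 4, and its level there did not follow Pecam1. Yap active 3 and Yap active 4 had 0.798 and 0.810 CPM of Pecam1 but 98.7 and 13.7 CPM of Eng. The same 2 libraries had fibroblast sums of 7778 and 1930 CPM and pericyte and smooth muscle sums of 1344 and 433 CPM, and the part of these cells in the level of Eng was not tested. The end of Eng overlaps that of Fpgs, and without strand in the counting some reads could be shared. Fpgs was at 13.5 to 24.6 CPM in all libraries, with 21.4 CPM in Yap active 4, where Eng was at 13.7 CPM. The part of shared reads in the level of Eng was not tested.

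Ednrb stood at 29.0, 10.1, 16.4, 3.91, 8.16 and 6.83 CPM in Yap active libraries 1 to 6, against 44.3, 24.7, 59.3 and 7.73 CPM in their controls. It stood at 8.34, 10.3, 5.15, 8.26 and 10.6 CPM in Yap deleted libraries 1 to 5, against 56.2, 55.2, 9.83 and 10.5 CPM in their controls. Ednrb passed 10% in 6 of the 8 libraries low in Pecam1. Its level in Yap active control 3 was as high as in Yap deleted controls 1 and 2, while Pecam1 there was 43.1 CPM, against 308 and 232 CPM in those controls, and Car4, the other aerocyte gene, was 10.3 CPM, against 40.5 and 74.8 CPM.

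**Figure D4:**
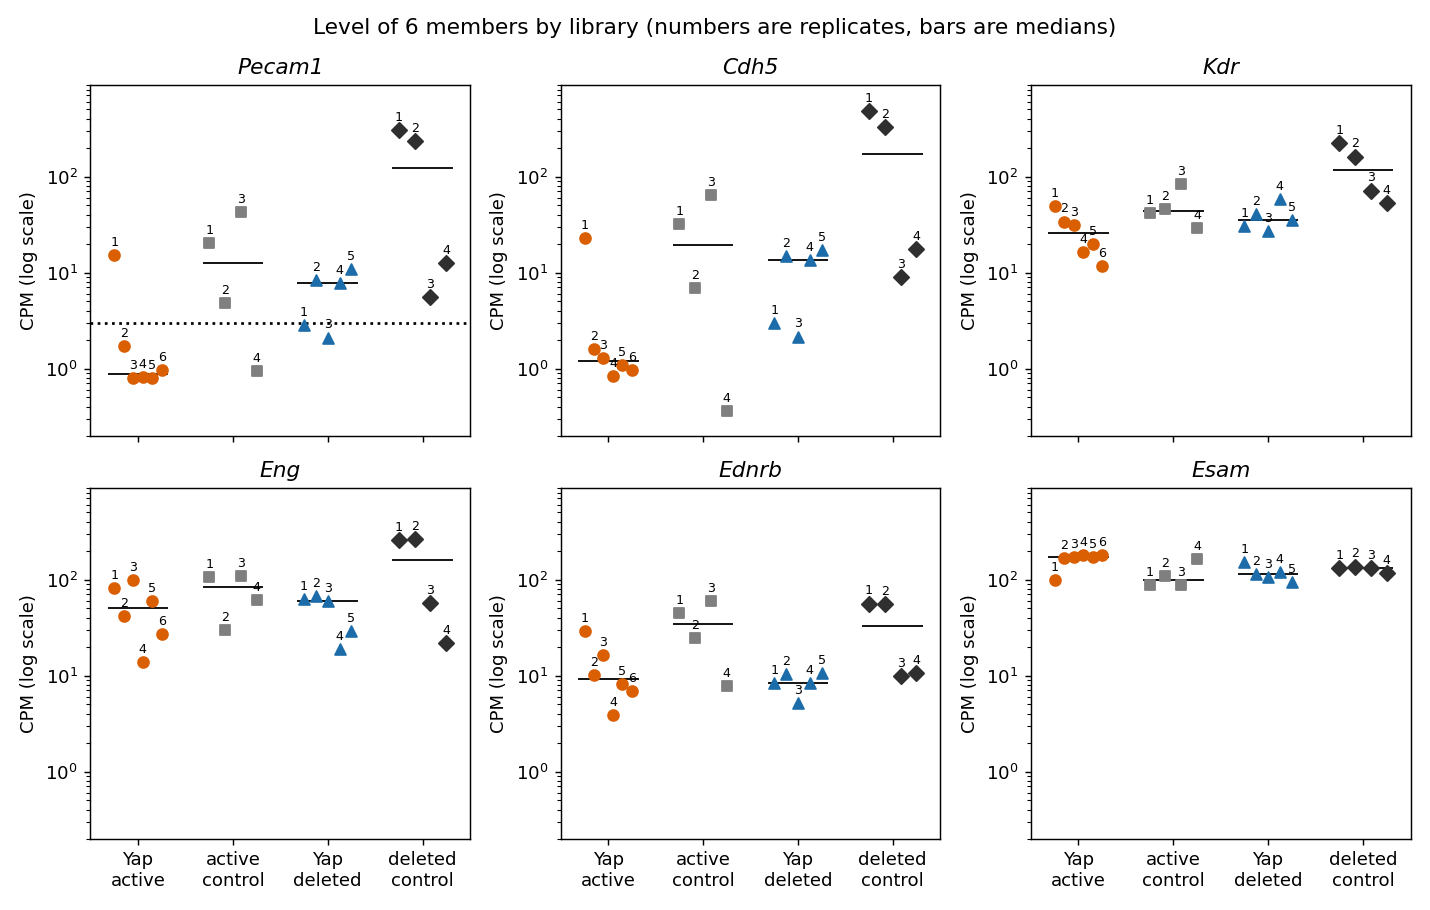
CPM (log axis) of Pecam1, Cdh5, Kdr, Eng, Ednrb and Esam in each library, with replicate numbers, by group, where bars are group medians and the dotted line in the first panel is 3 CPM. The spread is widest for Pecam1 and Cdh5 and narrowest for Esam, whose 19 libraries lie between 87.5 and 180 CPM.

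In Yap active libraries the endothelial genes had mostly negative fold changes against their controls, and none passed the test. The test was the quasi-likelihood test of edgeR with Benjamini-Hochberg adjustment over 15685 genes, and an adjusted p under 0.05 made a call. It called 0 of the 31 endothelial genes tested (Emcn was below the count filter) and 0% of all genes. DESeq2 called 0 of the 31 as well, and 0.0255% of all genes in the lower direction. Of the 31 genes 30 had a negative log2 fold change and Esam a positive one, with a median of -1.68 against -0.01 over all genes. At an unadjusted p under 0.05, 4 were lower, Cldn5, Mmrn2, Robo4 and Ednrb, where 5.98% of all genes were, and Esam was higher. With limma-voom and sample weights 29 were called lower, where 28% of all genes were.

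Pecam1 had a median of 0.886 CPM in Yap active libraries (range 0.798 to 15.1), and its log2 fold change was -2.34 ± 1.10 (SE; edgeR adjusted p = 0.366). The group ranges overlapped for Pecam1, as they did for Cdh5, at -2.41 ± 1.25 (edgeR adjusted p = 0.366). Gpihbp1 had -2.22 ± 1.04, Vwf -1.68 ± 0.85, Car4 -1.48 ± 0.98 and Plvap -1.10 ± 0.67 on the log2 scale, with edgeR adjusted p of 0.366 to 0.405. Kdr had -0.86 ± 0.40 (edgeR adjusted p = 0.366) and Erg -0.68 ± 0.95 (edgeR adjusted p = 0.669). Esam had 0.54 ± 0.23 (edgeR adjusted p = 0.366), with 5 of the 6 Yap active libraries above every control.

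The values in this line turned on single libraries. Without the library labelled Yap active 1 and that labelled Yap active control 2, which go against their labels by Esr1, the median of the 29 genes tested was -2.90, and 26 were lower at an unadjusted p under 0.05, where 15.7% of all genes were. Pecam1 then had -4.37 ± 0.86 and Cdh5 -4.76 ± 1.03 (edgeR adjusted p = 0.122 each). In that fit 0 of the 29 were called, and 13 of all 15602 genes. Without Yap active control 3, the control with the most Pecam1, the median of all 31 genes was -0.83, and without the library labelled Yap active 1 alone it was -2.62. The number lower at an unadjusted p under 0.05 was 0 to 25 when any 1 library was left out, with 25 without the library labelled Yap active 1 and 19 without Yap active control 4, where the median of 32 genes was -2.08. Among all genes, 5846 of 15483 and 5541 of 15913 passed that level in either direction in these fits, against 1981 of 15685 with all libraries. With all libraries, all 15 fibroblast genes and all 7 mesothelial genes also had negative fold changes, with medians of -0.82 and -1.18, and all 10 epithelial genes positive ones, with a median of 0.54. The part of these shifts in the endothelial values was not tested.

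In Yap deleted libraries all 32 genes had negative fold changes against their controls, and the size of these fold changes rested on controls 1 and 2. The edgeR test called 0 of 32 among 15818 genes, where it called 0.00632% of all genes (1 gene). At an unadjusted p under 0.05, 31 of the 32 were lower, all but Esam, where 9.18% of all genes were lower. The median log2 fold change was -3.85, against 0.01 over all genes. DESeq2 called 28 of the 32 as lower, where it called 3.86% of all genes lower, and limma-voom with sample weights, which gives libraries that stand apart less weight, called 0 genes lower (0%).

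Pecam1 had -4.50 ± 1.15 (SE; edgeR adjusted p = 0.247, DESeq2 adjusted p = 0.000455). Cdh5 had -4.40 ± 1.21 (edgeR adjusted p = 0.247, DESeq2 adjusted p = 0.00553), and Kdr -1.76 ± 0.43 (edgeR adjusted p = 0.247, DESeq2 adjusted p = 0.00418). Gpihbp1 had -4.46 ± 1.12, Plvap -3.70 ± 0.96, Vwf -3.15 ± 0.92, Erg -3.08 ± 1.0 and Car4 -3.06 ± 0.93 on the log2 scale, with edgeR adjusted p of 0.247 to 0.256. Esam had -0.15 ± 0.15 (edgeR adjusted p = 0.610). The group ranges overlapped for all 9 of these genes, for Kdr only between Yap deleted 4 (58.9 CPM) and control 4 (53.3 CPM).

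Without Yap deleted controls 1 and 2 the fold changes were smaller, but only controls 3 and 4 were left to compare with. The largest were -1.21 ± 1.06 for Emcn and 1.19 ± 0.71 for S1pr1. Of the 32 genes 25 were then lower and 7 higher, the median log2 fold change was -0.39, and 1 gene, Kdr, was lower at an unadjusted p under 0.05, where 3.71% of all genes were. Kdr had -0.71 ± 0.28 (edgeR adjusted p = 0.763), Pecam1 -0.55 ± 0.64 (edgeR adjusted p = 0.917) and Erg turned to 0.70 ± 0.52 (edgeR adjusted p = 0.891). DESeq2, added for these 7 libraries after the data had been seen, called 0 of the 32 and 141 of 16073 genes in all. With control 1 kept and only the library labelled Yap deleted control 2 left out, the median was -3.41 and 28 genes were lower at an unadjusted p under 0.05. In that fit 1280 of all 15909 genes passed this level in either direction. The 17 leukocyte genes tested moved the same way as the endothelial genes, all negative with a median of -2.71 with all libraries and 15 of 17 with a median of -0.77 without these 2 controls.

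**Figure D5:**
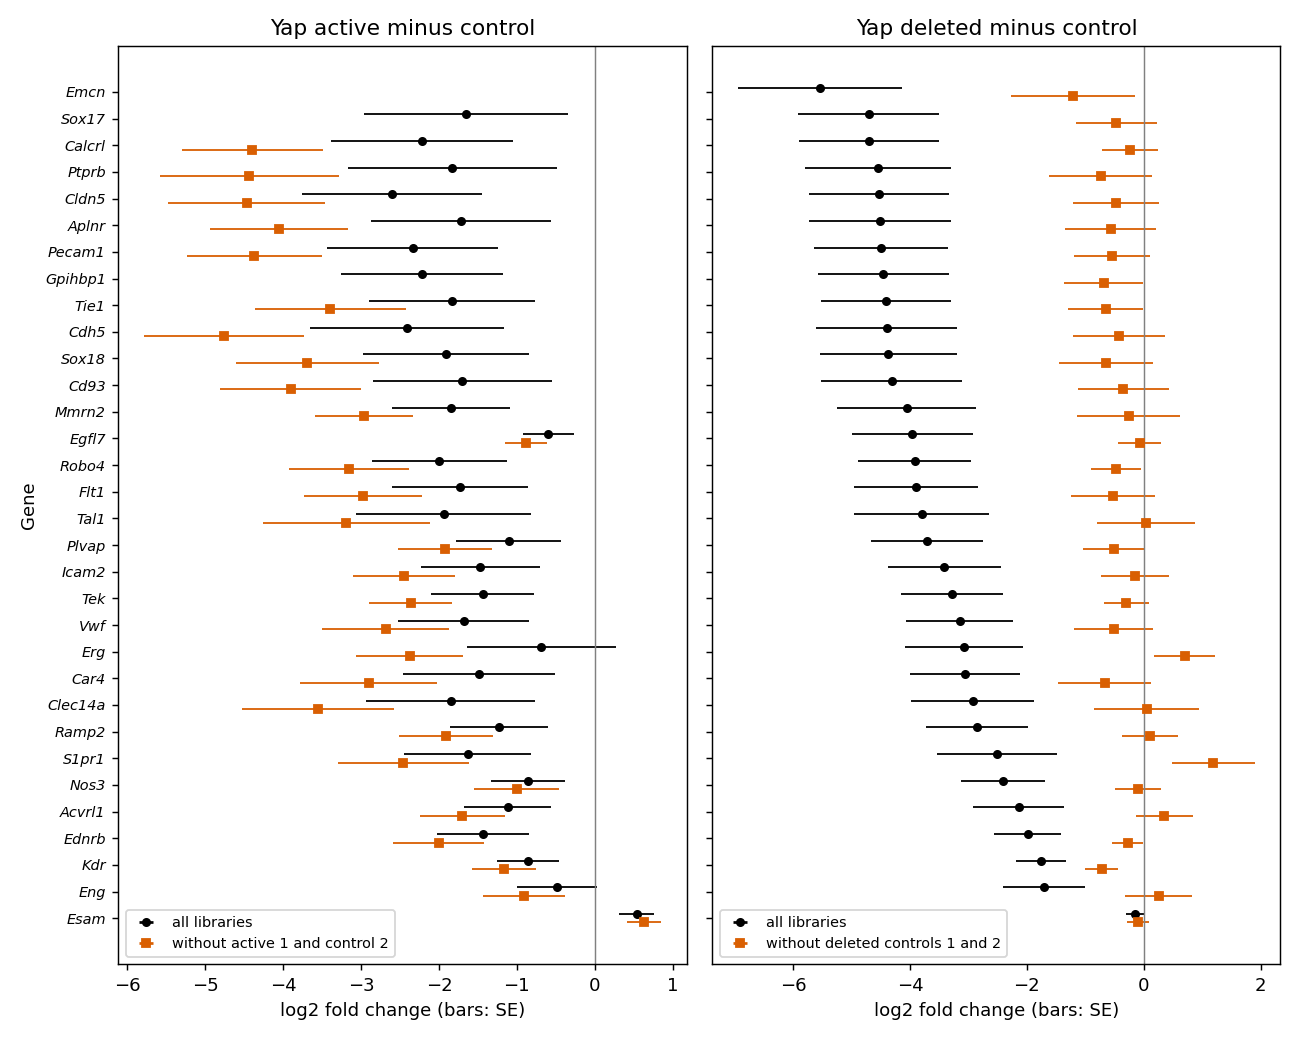
Log2 fold change with SE of each gene in the Yap active line (left) and the Yap deleted line (right), each against its own control, with all libraries (black circles) and without the libraries named in the legends (orange squares). In the right panel the black points reach -5.53 for Emcn, and the orange ones lie between -1.21 (Emcn) and 1.19 (S1pr1). Genes below the count filter have no point.

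The change in the Yap active line was also set against that in the Yap deleted line in 1 model over 19 libraries. None of the 32 genes was called by edgeR (0% of 16308 genes). DESeq2 called 0 of the 32 and 17 of the 16308 genes in all. All 32 differences, active change minus deleted change, were positive with a median of 1.97, and 3 genes, Egfl7, Plvap and Esam, passed an unadjusted p under 0.05, where 4.56% of all genes were higher at that level. Pecam1 differed by 2.16 ± 1.64 on the log2 scale (edgeR adjusted p = 0.818) and Esam by 0.69 ± 0.28 (edgeR adjusted p = 0.734). Without Yap deleted controls 1 and 2 the sign of 31 of the 32 turned, with a median of -1.29, and Esam alone stayed positive at 0.61 ± 0.32 (edgeR adjusted p = 0.553). Without the library labelled Yap active 1 the median was 0.76 and 29 of 32 were positive.

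Open chromatin was assayed by ATAC-seq on cells split from the same preparations, and the authors' deposited tables list 6017 regions opened and 1392 closed in Yap active cells, and 532 opened and 676 closed in Yap deleted cells, each with a nearest gene and a score of unstated scale. Of all 8617 regions, 11 named 10 of the 32 genes (31.2%), and they named 25% of the 23476 distinct gene names in the count tables. The regions opened in Yap active cells named 5 of the 32 (15.6%) and 19.3% of the gene names, both given as a description without a test. The authors' deposited table places one of them in intron 1 of Esam (chr9:37529673-37531807, mm10), 2.65 kb from the start site, with a score of 87.8 that ranks 1342 of the 6017 regions opened in Yap active cells. Among the 31 genes tested in that line, Esam alone had a positive log2 fold change in RNA, and none was called. Clec14a, Vwf, S1pr1 and Tek, also named by opened regions, had -1.85, -1.68, -1.63 and -1.44. A link between these regions and RNA was not tested. The authors' deposited table also lists as opened in Yap active cells a region over the Clec14a start (chr12:58268338-58269663, score 46.7), which contains the promoter window shown above. Clec14a RNA stood at 0.174 to 11.2 CPM in the Yap active libraries (median 0.740), against 12.6, 3.89, 22.3 and 0.688 CPM in their controls.

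Other opened regions in the authors' deposited table lay in intron 1 of Tek (score 65.2), in intron 14 of Vwf (33.5), 24.2 kb before the Vwf start (10.9, rank 5990 of 6017) and 21.9 kb past the S1pr1 start (12.0, rank 5903). Regions closed in Yap active cells in the authors' deposited table lay in intron 13 of Pecam1 (chr11:106673879-106674379, score 9.63, rank 1165 of 1392), intron 1 of Erg (10.5) and exon 8 of Nos3 (13.4). These are 9.38% of the 32 genes, and the closed list named 4.98% of the gene names. In Yap deleted cells the authors' deposited table gives opened regions nearest to Ednrb (54.9 kb away, score 32.1) and Cldn5 (71.1 kb away, 17.2), and 0 closed regions for the 32 genes. The opened list thus named 6.25% of the 32 genes and 2.04% of the gene names, and the closed list 0% and 2.41%. These shares are a description without a test. Scores rank regions within 1 list and were not compared between lists. With 1 ATAC library in the Yap deleted control group, that comparison had no replicate on the control side.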

How the data were processed

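The deposited gene tables hold whole-number read counts per gene, as the values show, and none of their sample columns was left out (0 columns). Per the submitters' processing notes, the tools were HOMER, DESeq, Cufflinks, Bowtie2 and Trim Galore, with no versions, and the build mm10. The counting program, its use of strand and the annotation are not given in the sources used here, and 27 gene names had been turned into dates. The authors' region lists carry a score whose scale is not stated, so it served only to describe regions within a list. The peak lists were not used here.

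Counts were scaled by TMM, filtered with filterByExpr and tested per line in edgeR 4.0.16 (R 4.3.3) by its quasi-likelihood test in the robust form, two-sided, with Benjamini-Hochberg adjustment over all genes tested and calls at an adjusted p under 0.05. DESeq2 1.42.0 and limma 3.58.1 gave alternatives. The SE is the absolute log2 fold change over the square root of F. The fits were tested on simulated data. Depth, 31.9 to 43.5 M counts, limits genes under about 1 CPM, and intervals and limits of 0 counts (3 counts) cover counting error only. No 2 libraries of a group were duplicates (lowest chi-square per gene 50.6).

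The 32 genes, the marker lists and the tests were chosen with earlier results of these data known. Levels were given for all 32 genes, and fold changes singly for Pecam1, Cdh5, Kdr, Erg, Vwf, Car4, Gpihbp1 and Plvap, for called genes and for genes at 10% or more of their highest level in all libraries with Pecam1 under 3 CPM. Replicate numbers were not used to pair the samples in the main fits, and alternatives included leaving out each library and those that stand apart. Promoter windows and gene positions come from RefSeq GRCm38.p6.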

Additional observations from a re-analysis of the deposited data

Results flagged for a closer look

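Of 132 sets of values checked (each gene, and the sum of the 32 genes, within each group), 23 had 1 library far from the others. All 23 were the library labelled Yap active 1 among the 6 Yap active libraries. Chance flags about 1 in 20 single sets, but many of these genes rise and fall together in the same libraries. The 23 flags are thus 1 observation about 1 library and cannot be set against that rate. The check also looks for 1 library apart, so libraries that are high together can escape it. Yap deleted controls with Pecam1 at 308 and 232 CPM, against 5.56 and 12.6 CPM in the others, were not flagged. By Esr1 the library labelled Yap active 1 goes against its label, as described above. In 22 of the 23 it was the highest library, and for Esam it was the lowest, at 98.9 CPM against 168 CPM in the nearest library.

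Among junction and adhesion genes it held Pecam1 at 15.1 CPM (next 1.73), Cdh5 at 22.9 CPM (next 1.61), Cldn5 at 15.9 CPM (next 2.29), Emcn at 1.3 CPM (next 0.0595) and Icam2 at 4.16 CPM (next 1.35). Among receptor kinases and their phosphatase it held Ptprb at 22.4 CPM (next 1.49), Tie1 at 6.53 CPM (next 1.14), Tek at 11.9 CPM (next 2.95) and Flt1 at 4.81 CPM (next 0.877). For G protein-coupled receptors and lumen genes these were Calcrl at 22.1 CPM (next 2.51), Aplnr at 6.33 CPM (next 0.476), Vwf at 15.4 CPM (next 5.71), Plvap at 10.2 CPM (next 4.41), Car4 at 6.1 CPM (next 1.21) and Gpihbp1 at 0.917 CPM (next 0.192). Surface and matrix genes gave Clec14a at 11.2 CPM (next 2.72), Cd93 at 25.1 CPM (next 2.42), Mmrn2 at 2.64 CPM (next 0.705) and Robo4 at 1.79 CPM (next 0.513). Transcription factors gave Erg at 10.1 CPM (next 1.7), Sox17 at 3.47 CPM (next 0.219) and Sox18 at 3.76 CPM (next 0.536). These 22 genes have their lower levels in the other 5 Yap active libraries, each with Pecam1 under 3 CPM.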

How the results depend on the processing

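In the Yap active line edgeR called 0 endothelial genes and 0 genes in all, limma-voom with sample weights 30 and 8871, and DESeq2 0 and 18. Without the library labelled Yap active 1 and that labelled Yap active control 2 edgeR called 13 genes in all, and with any 1 library left out 0 to 2. In the Yap deleted line edgeR called 0 endothelial genes and 1 gene in all, DESeq2 28 and 792, limma-voom 0 and 0, and with any 1 library left out 0 to 4 in all. DESeq2 without controls 1 and 2, added after seeing the data, called 141 genes and none of the 32. The fold change of Erg ranged between -2.12 and 0.046 with any 1 library left out of the Yap active line, and turned to 0.70 (edgeR) and 0.71 (DESeq2) without Yap deleted controls 1 and 2. The cause of these shifts was not tested.

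With the share limit at 5% in place of 10%, 4 genes stayed high, and without the 4 genes of highest CPM the sum of the highest library was 197 times that of the lowest, in place of 22.4. Same-numbered libraries did not deviate together throughout (correlations 0.523, 0.00905, 0.0512 and 0.494 in the Yap active line, -0.255, 0.445, 0.259 and 0.290 in the Yap deleted line). The numbers were therefore not used to pair samples in the main fits, and whether they mark a pairing is not known. With the replicate block edgeR called 0 endothelial genes in either line, and 0 genes in all in the Yap deleted line. RLE scaling and no count filter changed no call of the 32 genes. Of the single-gene and per-library values, 292 kept direction and side, 17 became called, 12 moved and 3 changed sign. Counts of 0 limit Emcn, Sox17, Tal1 and Gpihbp1 in the libraries with the least endothelial RNA.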
